A study of Mus musculus with 32 samples.

Results

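The sites described here are places where DMC1 intervals of RJ2 and B6 mice overlap on the mouse genome. DMC1 loads onto the single-stranded ends of meiotic double-strand breaks (DSBs), so a DMC1 interval marks a DSB hotspot. Members were selected on position alone: a B6 DMC1 interval was kept when it shared at least 1 bp with an RJ2 DMC1 interval, and the intervals were then paired. This gave 438 pairs, made of 437 of 15195 RJ2 intervals (2.88%) and 437 of 14774 B6 intervals (2.96%). In 131 pairs (29.9%) the central 400 bp of the intervals overlapped, and in 307 pairs they did not. Because position chose the pairs, overlap, shared length and the distance between centres are given as descriptions, and the intervals printed with them show counting error and are no test.

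RJ2 mice (strain label B10.MOLSGR(A)-(D17Mit58-D17Jcs11)/Bdm) carry the *Prdm9* Cst allele on a C57BL/10 background, and B6 mice (C57BL/6JOlaHsd) carry *Prdm9* Dom2. DMC1 was mapped in whole testes at 5 weeks of age, with 2 ChIP libraries per strain. PRDM9 was mapped in whole testes at 13 days in RJ2 (2 libraries), in *Spo11* KO mice (Spo11tm1M, 2 libraries), in *Prdm9* KO mice (B6;129P2-Prdm9tm1Ymat/J, 1 library) and in B6 (2 libraries). H3K4me3 was mapped in elutriated pachytene cells of adult testes, with 1 library per strain. Whole testis mixes germ cells of several stages with somatic cells, and the PRDM9, H3K4me3 and DMC1 material differed in age or purity. The lists hold mm9 positions pooled over replicates, with no score, so neither the strength of a site nor the spread between mice could be given; intervals in brackets are 95% intervals that cover counting error only.

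PRDM9 is a histone methyltransferase whose zinc finger array reads a DNA motif, trimethylates H3K4 and H3K36 nearby and so directs SPO11 to cut. Alleles with different zinc fingers send DSBs to different places, which is why strains with distinct *Prdm9* alleles share few hotspots. From *Prdm9* null mice it is known that DSBs can also form at promoters and other H3K4me3 sites, and that breaks in the pseudoautosomal region, where X and Y recombine in males, do not need PRDM9.

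To show what the DNA at these places looks like, a matrix was learned for each allele from its PRDM9 peaks at DMC1 centres. Its strongest letters, with N where no base dominates, were these:
Cst: NNAAAAGNCACAGNCCAAGNCANN
Dom2: NNAGNTGNTGCTGCCNNNTNNNNN
A match was called where its score passed a limit that 5% of 400 bp windows lying 2 kb from DMC1 centres pass. The matrices were learned on odd-numbered autosomes. On the other chromosomes, 78.3% of 3312 RJ2 PRDM9 peaks held a Cst match in their central 400 bp and 67.4% of 955 B6 PRDM9 peaks a Dom2 match, and these peaks had also served to choose between the starting words. Matches were searched on both strands, and they are descriptions of sequence, not bound sites.

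In some pairs the best matches of both alleles lay near each other. Of the 131 pairs with overlapping central parts, 30 held both matches within 300 bp of each other. The search covered the whole stretch spanned by the 2 intervals, which is longer than the 400 bp for which the limit was set. In that stretch both matches passed the limit in 54 of these 131 pairs and in 190 of the 307 apart. No share over all intervals is given beside the 30, so they are examples of sequence and not a trait of these sites. The plus strand of mm9 is printed below for 4 of the 6 with the highest summed scores, with the matches in capitals. They lie in an intron of Plxna4 (a plexin receptor of axon guidance) at chr6:32363425-32363513, between genes at chr2:24797386-24797509, in an intron of Cstf3 (a cleavage factor of mRNA 3′ ends) at chr2:104445931-104446065, and between genes near Mcart1 at chr4:45429347-45429407.
Plxna4: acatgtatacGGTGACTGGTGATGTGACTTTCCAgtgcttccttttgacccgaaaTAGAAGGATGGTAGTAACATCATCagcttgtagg
chr2 intergenic: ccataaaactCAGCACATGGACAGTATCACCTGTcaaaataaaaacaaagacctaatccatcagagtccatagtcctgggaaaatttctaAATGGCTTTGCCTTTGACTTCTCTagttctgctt
Cstf3: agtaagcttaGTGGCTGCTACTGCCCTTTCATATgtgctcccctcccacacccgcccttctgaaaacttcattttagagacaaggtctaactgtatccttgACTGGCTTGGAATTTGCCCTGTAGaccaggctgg
Mcart1: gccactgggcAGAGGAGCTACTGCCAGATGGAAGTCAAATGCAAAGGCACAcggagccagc
In Plxna4 the Cst match comes first and the Dom2 match second; in the other 3 the order is reversed. Near Mcart1 the matches share bases and form 1 run of capitals. The DMC1 centres of these pairs lay -8, 264, -33 and -25 bp apart in the order printed, where a negative offset puts the RJ2 centre to the left of the B6 centre. The remaining 2 pairs lay between genes on chromosome 17, with Six2 as the nearest gene and an offset of 359 bp, and in an intron of Fgf13 on X, with an offset of -230 bp.

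Some other pairs had a separate PRDM9 peak in each strain. An own-strain PRDM9 peak lay at both centres in 16 pairs, all with centres at least 400 bp apart, and the RJ2 and B6 PRDM9 lists share no position. Of the 10 nearest of these, 6 held matches of both alleles above the limit, beside 244 of all 438 pairs. For 3 of the 6, in an intron of Copb2 (a coatomer subunit), between genes nearest to Rnf32 and between genes nearest to Gm17350, each match is printed on the strand of the match.
Copb2, Cst, chr9:98478250-98478273, minus strand: AGAAAAGTCACAATCCCAAACATT
Copb2, Dom2, chr9:98479017-98479040, minus strand: CAAGGAGGCACTGCCTTGTAGCAG
Rnf32, Cst, chr5:29300360-29300383, minus strand: AGAACAGTCACAGCCCATCTCATC
Rnf32, Dom2, chr5:29301362-29301385, plus strand: TCAGGTGCTACCATCTTTTTGCTT
Gm17350, Cst, chr8:130739671-130739694, plus strand: GGAAGAGTCAAATGCCATGACCCT
Gm17350, Dom2, chr8:130741002-130741025, plus strand: CCTGCAGCTACTACCTCCTTCTTC
The distance from the Dom2 to the Cst match was -767 bp in Copb2, -1002 bp near Rnf32 and -1331 bp near Gm17350, beside centre offsets of -819, -915 and -1132 bp.

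Other pairs had coincident centres and no match of either allele above the limit at them. The 60 bases around the RJ2 centre are printed for an exon of Gm960, at chr19:4696046-4696105, and for an intron of Mid1, at chrX:166232962-166233021, both on the plus strand and without capitals because nothing passed the limit within the 200 bp on either side.
Gm960: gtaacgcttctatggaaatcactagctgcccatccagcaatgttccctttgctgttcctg
Mid1: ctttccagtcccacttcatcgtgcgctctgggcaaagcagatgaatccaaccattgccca
In Gm960 the RJ2 and B6 intervals had the same centre (offset 0 bp), and in Mid1 the offset was 5 bp. Outside the 200 bp, the Mid1 pair did hold a Cst match above the limit, 235 bp from the RJ2 centre.

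The distance between the RJ2 and the B6 centre ranged from 0 to 2272 bp, with a median of 786.5 bp and quartiles of 313.75 and 1320.75 bp. The RJ2 centre lay to the right of the B6 centre in 216 pairs and to the left in 221, so neither direction prevailed. The shared part was 5 to 2794 bp long (median 974 bp) and made up a median of 59.1% of the RJ2 interval and 51.6% of the B6 interval. Members were slightly wider than non-members, with medians of 1746 against 1696 bp for RJ2 and 1814 against 1750 bp for B6, and width is part of the rule, since a wide interval overlaps more easily. At least 50% of both intervals was shared in 218 pairs, and under 10% of both in 46 pairs.

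Just inside the limit, the shortest shared parts were 5 bp in a coding exon of Arfgap2 on chromosome 2 (offset 2105 bp), 13 bp in an intron of Pde1c on chromosome 6 (offset -1232 bp) and 25 bp near Tmsb15b1 on X (offset 1842 bp). Just outside, gaps of 7, 9 and 10 bp separated intervals on chromosomes 16, 1 and 9, with offsets of 1759, 1681 and -1638 bp. The longest shared parts were 2794 bp near 3110070M22Rik on chromosome 13, 2755 bp at Gm10800 on chromosome 2 and 2704 bp in Mid1 on X. A single B6 interval met 2 RJ2 intervals, on chromosome 11 from 64487680 to 64489483, with offsets of -1362 and 702 bp, and a single RJ2 interval met 2 B6 intervals, near Myt1l on chromosome 12.

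Most of this overlap was at the level that the same lists showed between sites too far apart to overlap, and the exception was a sharp excess of coincident centres. Centres 2 to 20 kb apart gave 21.6 pairs per 100 bp of distance [20.9 to 22.3], and those 20 to 100 kb apart gave 20.6. Between 400 and 600 bp there were 21 pairs per 100 bp [15.1 to 28.4], and between 800 and 1200 bp 19.2 [15.2 to 24.1]. Below 50 bp there were 38 pairs, or 76.0 per 100 bp [53.8 to 104], which is 3.52 times the level at 2 to 20 kb [2.49 to 4.84]. From 50 to 100 bp there were 17 pairs, or 34.0 per 100 bp [19.8 to 54.4]. From 100 to 400 bp the ratio was 1.17 [0.925 to 1.47]. Under 100 bp in all, 55 pairs gave a ratio of 2.55 [1.92 to 3.32], and under 400 bp, 131 pairs gave 1.52 [1.27 to 1.80].

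**Figure D1:**
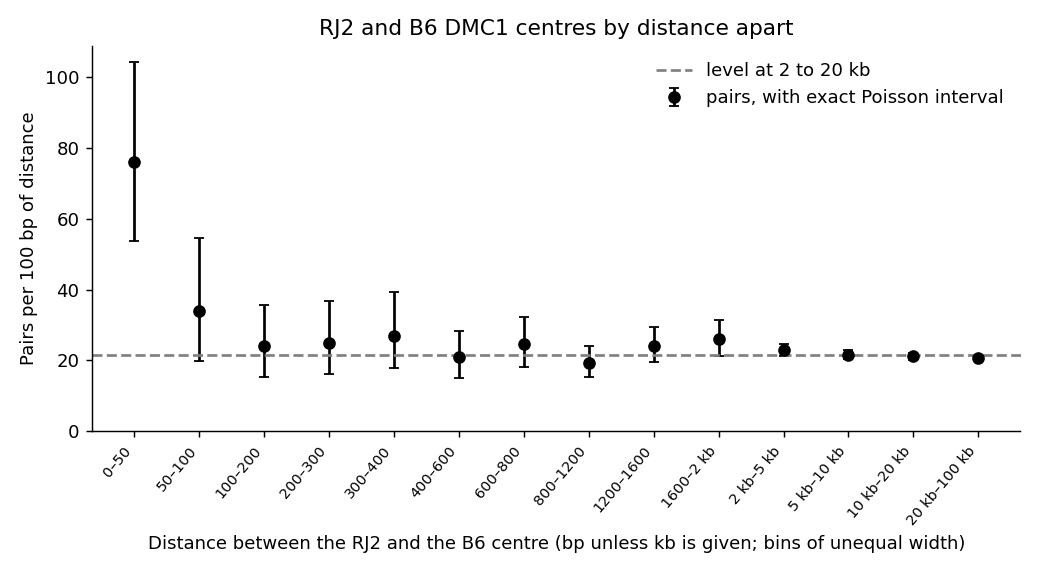
Number of pairs of an RJ2 and a B6 DMC1 centre per 100 bp of the distance between them (points, with exact Poisson intervals) against that distance in bins of unequal width; the dashed line is the level at 2 to 20 kb. The bin below 50 bp stands at 76.0 pairs per 100 bp, and bins from 100 bp on lie near the line at 21.6.

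The excess of coincident centres sat in pairs without the motif of either allele. An own-allele match, Cst in the central 400 bp of the RJ2 interval and Dom2 in that of the B6 interval, was present at both centres in 11, at 1 centre in 11 and at neither centre in 33 of the 55 pairs under 100 bp apart. Against the same class of pairs at 2 to 20 kb, the density under 100 bp was 10.1-fold [6.92 to 14.1] with no own match at either centre, 1.08-fold [0.538 to 1.93] with a match at 1 centre and 1.36-fold [0.679 to 2.43] with a match at both. The limit of 100 bp and these classes were chosen after the offsets were seen. The intervals take the level at 2 to 20 kb as fixed, and 10 of the 33 pairs lie in the last 2 Mb of X. Between 400 and 2000 bp, pairs with a match at both centres stood at 1.24 times their level [1.05 to 1.44]. From 100 to 400 bp the ratio of pairs with no match was 1.93 [1.16 to 3.01]. With a stricter limit, passed by 1% of windows, more pairs count as having no match, and the ratio under 100 bp was 4.28 [3.03 to 5.87] from 38 pairs.

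**Figure D2:**
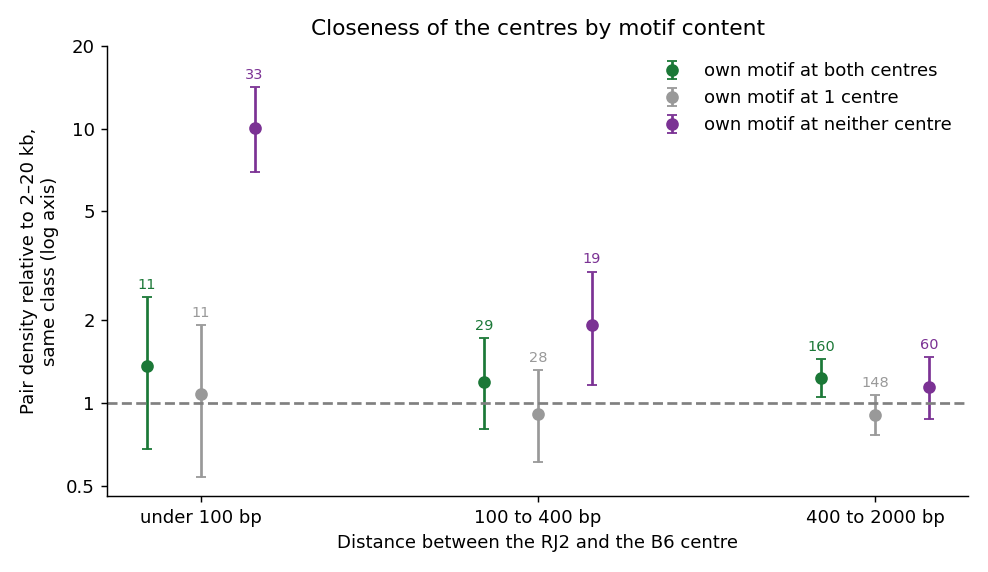
Density of pairs relative to the density of the same class at 2 to 20 kb (log axis; points with exact Poisson intervals, numbers of pairs above them), by distance between the centres and by whether the own-allele motif was found at both centres, 1 or neither. The class with the motif at neither centre and centres under 100 bp apart stands at 10.1, above every other class and distance plotted.

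Over all members, Cst matches were rarer at RJ2 centres than in non-members, and the other allele's matches were more frequent in both strains. A Cst match lay at the centre of 277 of 437 RJ2 members (63.4% [58.7 to 67.9]), beside 69.4% of all RJ2 intervals, and a Dom2 match at 229 of 437 B6 members (52.4% [47.6 to 57.2]), beside 54.8% of all B6 intervals. Members differed from non-members by -6.23 points for Cst in RJ2 [-10.9 to -1.78] and by -2.47 points for Dom2 in B6 [-7.22 to 2.24]. Dom2 matches lay at 43 RJ2 centres (9.84% [7.21 to 13.0], 4.47% of all) and Cst matches at 54 B6 centres (12.4% [9.42 to 15.8], 5.04% of all), with differences from non-members of 5.53 points in RJ2 [3.05 to 8.70] and 7.54 points in B6 [4.75 to 10.97]. Pairs with overlapping central parts share sequence, and they held Dom2 matches at 27 of 131 RJ2 centres, against 16 of 307 in pairs apart. Own-allele matches were less frequent in pairs with overlapping central parts than in those apart, by 19.8 points for Cst in RJ2 (65 of 131 against 213 of 307, difference -19.8 [-29.5 to -9.75]) and by 16.1 points for Dom2 in B6 (54 of 131 against 176 of 307, difference -16.1 [-25.8 to -5.88]).

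Where both motifs were present, their spacing followed the spacing of the DMC1 centres. The best Cst match over a pair's whole union passed the limit in 346 pairs and the best Dom2 match in 288, although a union is longer than the 400 bp for which the limit was set. The Cst match lay a median of 82.5 bp from the RJ2 centre and 825 bp from the B6 centre, and within 100 bp of the RJ2 centre in 200 pairs and of the B6 centre in 19. The Dom2 match lay a median of 94.0 bp from the B6 centre and 852.5 bp from the RJ2 centre, and within 100 bp of these in 154 and 11 pairs. In the 244 pairs with both, the distance from Dom2 to Cst match and the offset of the centres had the same sign in 219 and differed by at most 200 bp in 158 (Spearman's rho 0.85 over 244 pairs, as a description; 0.48 over the 54 with overlapping central parts and 0.85 over the 190 apart). The matrices were learned from PRDM9 peaks that lie at DMC1 centres, some members among them, so closeness to the own centre is partly built in.

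**Figure D3:**
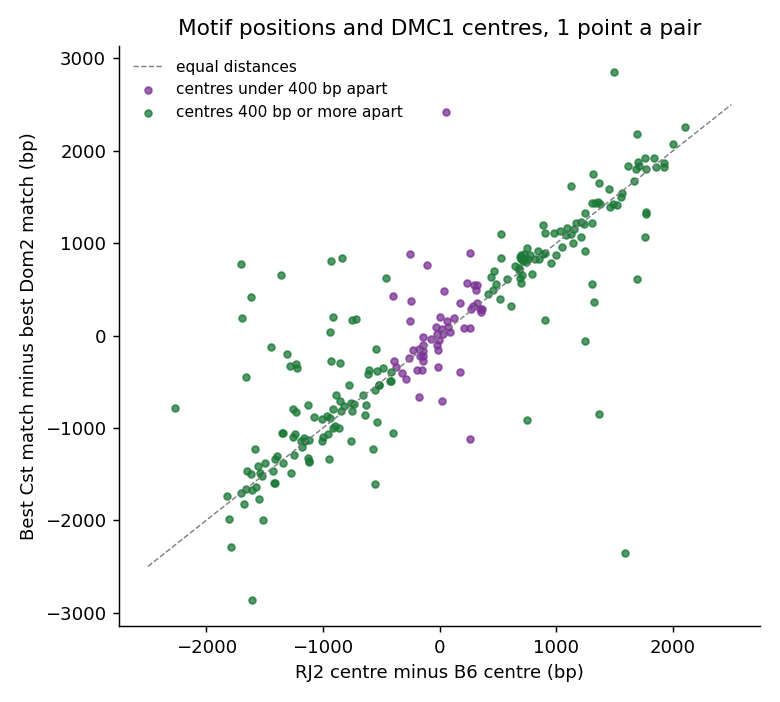
Distance from the best Dom2 to the best Cst match against the distance from the B6 to the RJ2 centre, in bp, for the 244 pairs with both matches above the limit (1 point a pair, coloured by whether the centres are under 400 bp apart; the dashed line marks equal distances). Most points lie along the line: 158 are within 200 bp of it.

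At the centres of the overlapping hotspots, RJ2 PRDM9 was detected far more often than B6 PRDM9, as over the whole lists. An RJ2 PRDM9 peak lay in the central 400 bp of 178 of 437 RJ2 members (40.7% [36.1 to 45.5]), beside 44.9% of all RJ2 intervals, and a B6 PRDM9 peak in that of 47 of 437 B6 members (10.8% [8.01 to 14.04]), beside 12.6% of all B6 intervals. Members differed from non-members by -4.31 points in RJ2 [-8.89 to 0.422] and by -1.87 points in B6 [-4.50 to 1.43], and both intervals hold 0. Taken by pair, an own-strain PRDM9 peak lay at both centres in 16 pairs, at the RJ2 centre only in 163, at the B6 centre only in 31 and at neither in 228. The 10 with the nearest centres lay 537 to 1132 bp apart: in introns of Copb2, Tnik (a kinase of Wnt signalling), Dsg2 (a desmosomal cadherin), Ctnnd2 and Gm16885, in a UTR of Prkca (protein kinase C alpha), and between genes nearest to Tmem106b, Rnf32, Foxred2 and Gm17350.

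PRDM9 shares were lower in the pairs with overlapping central parts. There, 39 of 131 RJ2 centres held an RJ2 PRDM9 peak, against 140 of 307 in pairs apart (29.8% against 45.6%, difference -15.8 points [-24.9 to -5.87]), and 4 of 131 B6 centres a B6 PRDM9 peak, against 43 of 307 (3.05% against 14.01%, difference -11.0 points [-15.7 to -5.26]). The authors had removed PRDM9 peaks found in both strains, and the RJ2 and B6 lists share no position, so PRDM9 bound at the same place in both strains cannot appear here, and its part in the lower shares was not tested. The 4 pairs with B6 PRDM9 lay in introns of 4930448K12Rik on chromosome 1 and 5730419I09Rik on chromosome 6, and between genes on chromosomes 2 and 5. At B6 centres with overlapping central parts, RJ2 PRDM9 peaks (37 of 131, 28.2%) were more frequent than B6 PRDM9 peaks.

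The *Spo11* KO list, from mice with PRDM9 Dom2 and no meiotic DSBs, was not freed of peaks shared with RJ2, and 147 of its 1070 peaks (13.7%) met no peak of the B6 list. *Spo11* KO PRDM9 peaks lay at the B6 centre of 22 members (5.03% [3.18 to 7.52]), beside 6.67% of all B6 intervals. In pairs with overlapping central parts, 5 of 9 such peaks met no peak of the B6 list, against 0 of 13 in pairs apart, and against 71 of 985 (7.21%) at all B6 DMC1 centres. None of the 22 met a peak of the RJ2 list, and whether the 5 were among the shared peaks that the authors removed was not tested. The 5 pairs, named after their values were seen, lay in introns of Rhot1 (a mitochondrial transport GTPase), Pcdh9 (a protocadherin), Gramd1b and Mid1 and between genes nearest to Spin4 on X; 4 of them carried common H3K4me3 and no strain mark, and the pair in Mid1 no mark. *Prdm9* KO peaks, which reflect signal that does not need PRDM9, lay at 4 RJ2 centres (0.915% [0.2499 to 2.33]; 0.125% of all) and at 2 B6 centres (0.458% [0.0555 to 1.64]; 0.0948% of all). They belonged to 4 pairs, in Erbb4, in Casz1 and 2 in Mid1. Although the authors used the *Prdm9* KO peaks to filter the PRDM9 lists, 252 RJ2 and 2 B6 PRDM9 peaks overlapped the deposited *Prdm9* KO list.

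H3K4me3 common to both strains was the mark most over-represented at these hotspots relative to all hotspots, among the own-strain and common marks. It lay at 88 of 437 RJ2 centres (20.1% [16.5 to 24.2]), beside 3.32% of all RJ2 intervals, and at 104 of 437 B6 centres (23.8% [19.9 to 28.1]), beside 3.77% of all B6 intervals. Members exceeded non-members by 17.3 points in RJ2 [13.8 to 21.3] and by 20.6 points in B6 [16.9 to 24.9]. H3K4me3 specific to the own strain, the usual product of PRDM9, was correspondingly less frequent, with 231 of 437 RJ2 centres (52.9% [48.1 to 57.6]; 80.9% of all) and 78 of 437 B6 centres (17.8% [14.4 to 21.8]; 40.4% of all). The common and specific H3K4me3 lists share no position, so part of this exchange is built in. By the rule, each member has a hotspot of the other strain beside it. H3K4me3 made by PRDM9 in both strains at such a place can be listed as common. Common H3K4me3 here therefore cannot be told apart from PRDM9-made H3K4me3 of 2 neighbouring hotspots, and the part of each was not tested. Any own mark (PRDM9, specific or common H3K4me3) lay at 345 of 437 RJ2 members (78.9%; 85.5% of all RJ2 intervals), 6.72 points below non-members [-10.8 to -3.11]. It lay at 186 of 437 B6 members (42.6%; 45.1% of all B6 intervals), 2.59 points below non-members, with an interval that holds 0 [-7.21 to 2.16].

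Common H3K4me3 was more frequent where the centres were close. It lay at 53 of 131 RJ2 centres with overlapping central parts, against 35 of 307 apart (40.5% against 11.4%, difference 29.1 points [20.1 to 38.2]), and at 51 of 131 B6 centres against 53 of 307 (38.9% against 17.3%, difference 21.7 points [12.5 to 31.0]). When the pairs were ranked by offset into 5 equal parts, the nearest (0 to 244 bp) held common H3K4me3 at 37.5% of centres in either strain and the next (249 to 613 bp) at 40.2% in RJ2 and 39.1% in B6. The farthest (1426 to 2272 bp) held it at 4.55% in RJ2 [1.25 to 11.2] and 6.82% in B6 [2.54 to 14.3], intervals that include the shares of all DMC1 intervals. RJ2-specific H3K4me3 at the RJ2 centre ran the other way, at 27.3% in the nearest part and 76.1% in the farthest. B6-specific H3K4me3 at the B6 centre did too, at 4.55% and 31.8%. Specific intervals had median widths of 780 bp in RJ2 and 722 bp in B6. The nearer 2 hotspots lie, the more readily H3K4me3 of both strains overlaps and is listed as common. Part of both trends with offset can thus come from how the lists were split, and its size was not tested.

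**Figure D4:**
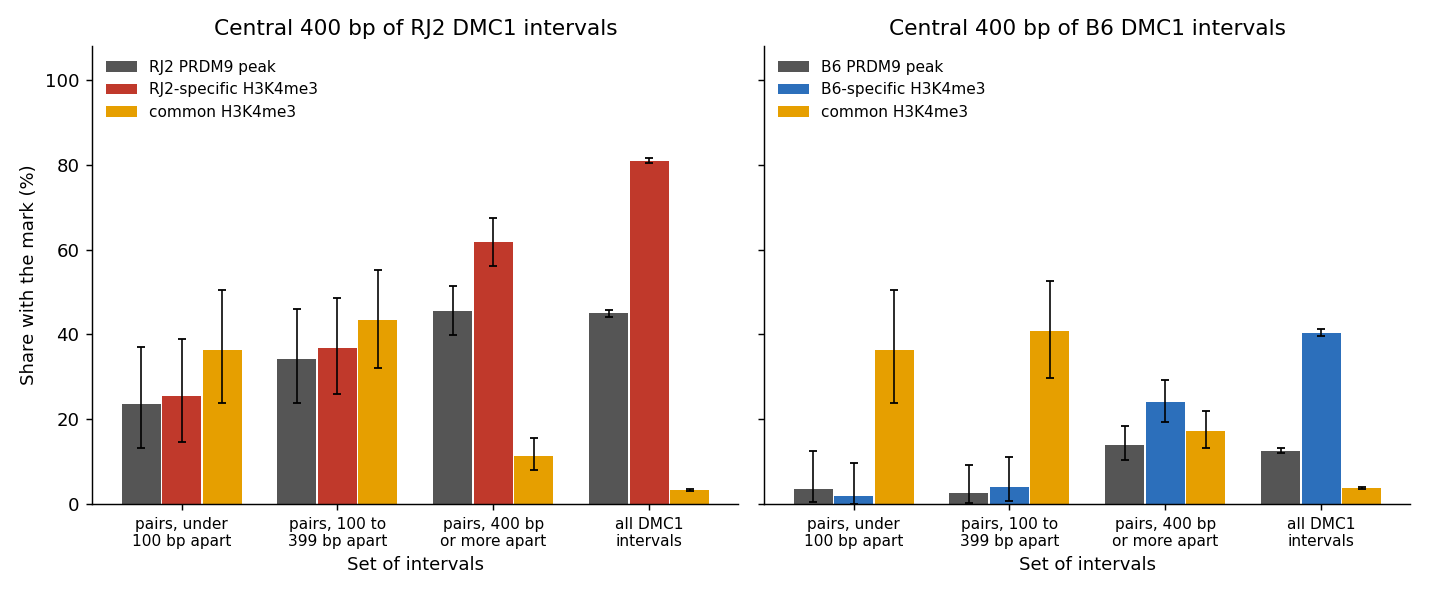
Share of RJ2 (left) and B6 (right) DMC1 intervals whose central 400 bp overlap an own-strain PRDM9 peak, own-strain specific H3K4me3 or common H3K4me3 (bars, with 95% Clopper-Pearson intervals), for pairs by distance between centres and for all DMC1 intervals. Common H3K4me3 reaches 36.4% in pairs under 100 bp apart, beside 3.32% of all RJ2 and 3.77% of all B6 intervals.

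Marks of the other strain reached a hotspot mainly in 1 direction. RJ2-specific H3K4me3 lay at 87 of 437 B6 centres (19.9% [16.3 to 23.97]; 0.704% of all), whereas B6-specific H3K4me3 lay at 8 of 437 RJ2 centres (1.83% [0.794 to 3.58]; 0.0658% of all). RJ2 PRDM9 peaks lay at 53 of 437 B6 centres (12.1%; 0.46% of all) and B6 PRDM9 peaks at 5 of 437 RJ2 centres (1.14%; 0.0329% of all). By the rule, each member has a hotspot of the other strain beside it. The RJ2 lists are the larger ones, with 10121 PRDM9 peaks against 2601 in B6, and the part of list size in this asymmetry was not tested.

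Taking both centres of a pair together, strain marks (PRDM9 or specific H3K4me3) were those of RJ2 in 227 pairs, of B6 in 31 and of both strains in 65, while 53 pairs had common H3K4me3 alone and 62 had no mark. All 65 pairs with marks of both strains were among those with central parts apart. The strains' PRDM9 lists share no position, nor do their specific H3K4me3 lists, so marks of both strains at overlapping central parts were largely excluded beforehand. Of the 55 pairs under 100 bp apart, 19 had RJ2 marks (34.5% [22.2 to 48.6]), 3 B6 marks, 15 common H3K4me3 alone (27.3% [16.1 to 41.0]) and 18 no mark (32.7% [20.7 to 46.7]). Of the 18 without a mark, 17 also had no own motif at either centre. In pairs apart, 32 of 307 had no mark (10.4% [7.24 to 14.4]). A centre without any of these marks was not itself rare: it was found in 85 of 437 RJ2 members and 165 of 437 B6 members, beside 14.5% of all RJ2 and 54.2% of all B6 intervals.

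The distal end of X held the densest group of coincident centres. In the last 2 Mb of X in mm9, 15 of 34 RJ2 intervals (44.1% [27.2 to 62.1]) and 15 of 32 B6 intervals (46.9% [29.1 to 65.3]) formed 15 pairs, against 32 of 879 (3.64%) and 32 of 803 (3.99%) on the rest of X and 388 of 14273 (2.72%) and 388 of 13928 (2.79%) on the autosomes. All 15 pairs had overlapping central parts, with a median offset of 73 bp and a largest of 388 bp, against 10 of 32 on the rest of X and 105 of 389 on the autosomes. They lay 215 to 1175 kb from the end of the assembled X. Within 300 kb of the end, all 8 RJ2 intervals were paired, with 8 of 9 B6 intervals.

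These 15 pairs sat largely in Mid1, a microtubule-associated ubiquitin ligase gene that spans the boundary of the pseudoautosomal region in C57BL/6 mice. Mid1 held 14 RJ2 and 13 B6 intervals, of which 10 each were paired, and of the other pairs 2 lay in Gm15726, 2 in Arhgap6 and 1 near Gm15246. None of the 15 had an own-allele motif at either centre. No mark lay at 9 of them, common H3K4me3 alone at 2 and RJ2 marks at 4. An RJ2 or B6 PRDM9 peak lay at 4 of the 15. Peaks of the KO lists do not count as marks here. The pairs with no mark include those in Mid1 with *Prdm9* KO peaks and the Mid1 pair with a *Spo11* KO PRDM9 peak. With the 15 pairs X contributed 47 members of each strain, beside 6.01% of all RJ2 and 5.65% of all B6 intervals, and 14 of the 55 pairs under 100 bp apart. Y held 2 pairs, at the start of Uty (offset -12 bp) and in an intron of Usp9y (offset -1677 bp).

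**Figure D5:**
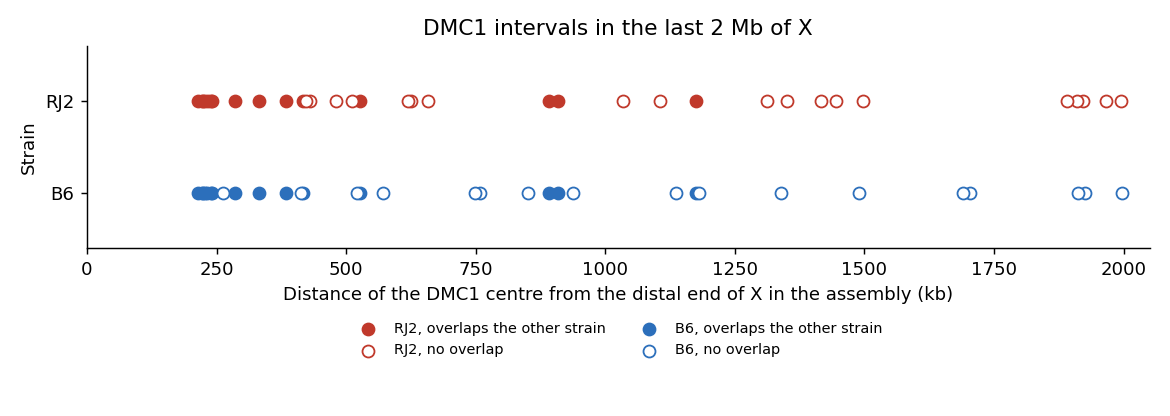
DMC1 centres of RJ2 (upper row) and B6 (lower row) in the last 2 Mb of X by distance from the end of the assembled chromosome, in kb; filled circles overlap an interval of the other strain and open circles do not. Filled circles crowd within 600 kb of the end, where 12 of the 15 pairs lie.

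The excess of coincident centres was not confined to X. On the autosomes alone, 40 pairs lay under 100 bp apart, 2.02 times the level at 2 to 20 kb [1.44 to 2.75], and 19 of them had no own motif at either centre, 6.75 times their level [4.06 to 10.5]. Without the last 2 Mb of X the ratios were 2.11 [1.54 to 2.83] and 7.55 [4.79 to 11.3]. The 19 autosomal pairs included those near Ly6c2 and Gm5614 and at Gm10801 and Gm10800, with more than 1 copy in the assembly. They also included the exonic pairs of Mei4 and Gm960 described below. Over all chromosomes, leaving out intervals above 1 copy gave a ratio of 8.94 [5.94 to 12.9] with no own motif. Pairs lacking common H3K4me3 at 1 centre or at both gave 35 pairs under 100 bp, 1.63 times their level [1.13 to 2.26]. Those with it at both centres numbered 20 under 100 bp and 12 in the whole range from 2 to 20 kb. Centres under 100 bp apart share most of their central 400 bp, and the common H3K4me3 intervals had a median width of 1097 bp. Both centres can therefore meet the same interval mainly when they are close, so the contrast of 20 with 12 was largely built in.

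Coincident centres were also frequent in coding exons. The midpoint of the shared part was in a coding exon in 10 of 55 pairs under 100 bp apart (18.2% [9.08 to 30.9]), against 6 of 307 in pairs apart (1.95% [0.721 to 4.21]), and beside 1.95% of all RJ2 and 2.40% of all B6 centres. Of these 10, 8 had no own motif at either centre and 5 had no mark. Introns held 26 of the 55, intergenic sequence 17 and UTRs 2. Over all 438 pairs, 259 were intronic (59.1%) and 145 intergenic (33.1%), beside 47.5% and 47.7% of RJ2 and 47.7% and 47.3% of B6 intervals.

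Of the 10 exonic pairs, 2 lay in Mei4 and 1 in Gm960, which were named after their values were seen. Mei4, whose product is required for meiotic DSB formation, held 2 DMC1 intervals in each strain, and all 4 were centred in coding exons. In the first, a coding stretch of 536 bp on chromosome 9, the RJ2 centre lay 28 bp and the B6 centre 55 bp from the middle of that stretch. In the second, of 267 bp, the RJ2 centre lay 55.5 bp and the B6 centre 7.5 bp from it. Gm960, which encodes the TOPOVIBL partner of SPO11, held 1 RJ2 and 3 B6 intervals, of which 1 in each strain was centred in a coding exon. They formed the pair with offset 0 bp, with both centres 2.5 bp from the middle of a coding exon of 139 bp. In all 3 pairs there was no PRDM9 peak of RJ2 or B6, no specific or common H3K4me3 and no own motif at either centre, and the sequence had 1 copy in the assembly. The RJ2 intervals of these pairs were 1568 to 1886 bp wide, wider than the coding stretches. The lists give positions alone, so whether the DMC1 signal ends at the exon boundaries, and whether these 3 pairs mark DSBs, was not tested. The others lay in Parg (poly(ADP-ribose) glycohydrolase), Megf10, Gm10800, Arhgap6, Uty and Mid1, the last with 2 pairs.

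Gene starts were more frequent at coincident centres. A centre lay within 1 kb of a transcription start in 29 of 437 RJ2 members (6.64% [4.49 to 9.39]; 4.07% of all) and 33 of 437 B6 members (7.55% [5.25 to 10.4]; 4.01% of all). In pairs with overlapping central parts it did so in 18 of 131 for either strain, against 11 of 307 RJ2 and 15 of 307 B6 centres apart (differences of 10.2 points [4.58 to 17.3] and 8.85 points [3.13 to 16.0]). Under 100 bp apart, 11 of 55 pairs lay within 1 kb of a start, many of them in 1 region. Those outside the last 2 Mb of X were at Uty, 2610002M06Rik, Api5, Zfp462 and the neighbouring Gm10801 and Gm10800, whose centres exceed 1 copy. The remaining ones were at starts of Arhgap6 and Mid1 in the last 2 Mb of X. Common H3K4me3 lay at both centres of 51 pairs with overlapping central parts. The 6 nearest to a start were at Uty (a Y-linked histone demethylase, 9 bp from the start, offset -12 bp), 2610002M06Rik (95 bp, offset -5 bp), 2 starts of Mid1 (191 and 498 bp, offsets -8 and 56 bp), Gm10801 (488 bp, offset 8 bp) and Zfp462, a zinc finger gene (535 bp, offset -18 bp). The 5 smallest offsets belonged to Gm960, 2610002M06Rik, an intron of Mid1, an intergenic site on chromosome 2 with B6 PRDM9 (offset 7 bp) and Plxna4, so that they spanned sites with no mark, common H3K4me3 and strain PRDM9. Plxna4 (offset -8 bp) was tied in size with Gm10801 and the Mid1 start at 191 bp, which had common H3K4me3 and no own motif.

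Few centres lay in sequence that is repeated in the assembly. The authors had kept only reads that map uniquely, so signal in repeated sequence was partly removed before the DMC1 lists were made. Copies were counted in mm9 alone, so a repeat that the assembly holds fewer times than the genome does would be missed. A centre whose 24-base words had a median of at least 10 copies in mm9 was found in 4 RJ2 members and 2 B6 members (0.915% and 0.458%), beside 1.82% of all RJ2 and 0.778% of all B6 intervals, and all 6 were in pairs with central parts apart. With overlapping central parts, 5 of 131 pairs exceeded a median of 1 copy, with at most 4 copies, and all 5 had centres under 100 bp apart and no own motif. They lay near Ly6c2 on chromosome 15, at Gm10801 and Gm10800 on chromosome 2, near Gm5614 on chromosome 9 and in 4930468A15Rik on X. Without intervals above 1 copy the ratio under 100 bp was 2.43 [1.81 to 3.21], and without those over *Prdm9* KO peaks 2.52 [1.89 to 3.28].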

How the data were processed

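Sequencing libraries of 32 samples lie behind the series; the 10 of H3K36me3 were not analysed here. The authors mapped reads to mm9 (Bowtie2, Bowtie or, for DMC1, a modified BWA), called peaks with MACS, set the number of PRDM9 and DMC1 peaks from the reproducibility of replicates (irreproducible discovery rate), filtered PRDM9 peaks against *Prdm9* KO peaks, removed those shared by RJ2 and B6, and deposited 9 lists of positions pooled over replicates. No score, read count or depth is in the lists, so precision by depth is unknown and no value per replicate exists.

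Intervals were paired by overlap of at least 1 bp, and marks were counted by 1 bp of overlap with the central 400 bp. Shares carry Clopper-Pearson intervals, differences of shares Newcombe intervals and densities exact Poisson intervals, all at 95%. Intervals of density ratios cover the count of close pairs alone and take the level at 2 to 20 kb as fixed. Sites are not independent replicates and no p-value was computed. Genes are those of GENCODE vM1. Motif matrices of 24 positions were learned on odd-numbered autosomes from 12 seeds of 8 bases. Copies are the median number of places in mm9 that hold each 24-base word, taken every 10 bp. The overlap, motif and copy code was tested on simulated data. All members and lists were chosen with earlier results of these data known; the limit of 100 bp, the last 2 Mb of X, the classes by motif and the exon comparison were chosen after the offsets were seen.

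Named sites are the 5 smallest offsets, up to 10 pairs with own PRDM9 at both centres, the 6 pairs with overlapping central parts and common H3K4me3 nearest to a start, the 3 longest shared parts, 3 pairs on each side of the overlap limit, intervals with 2 partners, and the 6 best pairs with both motifs within 300 bp; every other site in the text was named after its values were seen. Alternatives changed the overlap rule, the central window, the lists' width, the motif limit and the regions kept. Python 3.11.15, numpy 2.4.6, pandas 2.3.3, scipy 1.17.1, pysam 0.24.0 and matplotlib 3.10.9 were used.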

Additional observations from a re-analysis of the deposited data

How the results depend on the processing

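Over 25 results and 64 alternatives, 39 values stayed within their interval or within 1.5 times the count, 25 moved and 0 reversed. The number of B6 members was 218 with at least 50% of both intervals covered and 162 in the wider 50% of each list, and pairs with overlapping central parts numbered 79 with 200 bp and 222 with 800 bp. In the wider 50% of each list the density ratio under 400 bp was 2.43. With no own motif at either centre, the ratio under 100 bp was 6.75 without X and Y and 4.28 with the 1% motif limit. Requiring the PRDM9 peak's own centre inside the 400 bp gave 35.7% of RJ2 members (38.4% of all RJ2 intervals). Over whole DMC1 intervals, H3K4me3 of the other strain lay at 9.38% of RJ2 and 41.9% of B6 members (0.382% and 1.79% of all) and common H3K4me3 at 28.6% and 29.3% (4.92% and 5.49% of all); covering at least 10% of the interval, the other strain's lay at 5.49% and 35.7% (0.211% and 1.44% of all) and common H3K4me3 at 25.6% of RJ2 (4.44% of all). Within 2.5 kb of a start lay 14.6% of RJ2 and 14.2% of B6 members, beside 9.76% of all RJ2 intervals and 9.997% of all B6 intervals. At the 1% limit, Cst matches lay at 42.3% of RJ2 and 4.81% of B6 member centres (45.4% and 0.914% of all) and Dom2 matches at 5.49% and 27.0% (0.948% and 27.0% of all); in 200 bp windows Cst matches lay at 45.1% and 6.41% (47.2% and 2.26% of all) and Dom2 matches at 3.43% and 34.1% (2.11% and 37.9% of all). Alternatives on X, copies, *Prdm9* KO peaks and the motif limit under 100 bp were chosen after seeing the data. No paired analysis was possible because the lists are pooled over replicates; for the same reason no replicate could be left out.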
